A study of Mus musculus with 52 samples.

Results

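The 68 genes described here encode semaphorins, plexins, ephrins, Eph receptors, slits, Robo receptors, netrins and Unc5 receptors, the guidance cues and receptors first studied in growing axons. They were chosen by symbol alone, as the 68 of 24421 gene symbols in the count files that match the names of these families, and no measured value entered the choice. The 68 comprised 20 semaphorins, 9 plexins, 8 ephrins, 14 Eph receptors, 3 slits, 4 Robo receptors, 4 netrins and 4 Unc5 receptors. The last 2 were Plxna4os1, a transcript antisense to a plexin gene, and Unc5cl, which is named after the Unc5 family but is not one of its netrin receptors.

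As background, semaphorins signal through plexins, with neuropilins as co-receptors for most secreted members of the third class, and they often collapse the actin cytoskeleton of the receiving cell. Ephrins sit on the surface of one cell and bind Eph receptor tyrosine kinases on the next, so that both cells can respond. Slits act through Robo receptors and netrins through Dcc, neogenin and Unc5 receptors, and in the developing kidney these families are known for positioning and branching the ureteric bud and its collecting ducts.

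RNA was sequenced from Cilia-APEX-IMCD3 cells, an immortalised mouse inner medullary collecting duct line that carries a peroxidase targeted to the cilium. The clones carry homozygous missense alleles of Wdr34 or Wdr60, which encode the intermediate chains of dynein-2, the motor of retrograde transport in the cilium, or are controls. All were transfected with the cytosine base editor BE4-Gam and a guide vector, which in the controls held no target oligo, and each clone was grown from 1 sorted cell. Ciliated cells comprised 3 mutant clones (Wdr34 clone 1, Wdr34 clone 3 and Wdr60) and 4 control clones (G7, D8, A4 and H12), and non-ciliated cells comprised 2 mutant clones (Wdr34 and Wdr60) and 4 control clones (AB, 1, 2 and 3). Each of the 13 clones gave 4 technical replicate libraries, 52 in all. The labels give no allele for the Wdr34 clones of ciliated cells, which are therefore named by number here. By the study's text, the Wdr60 allele changes an alanine to valine, and the Wdr34 alleles change an arginine to tryptophan or a glycine to serine. The glycine to serine mutant was left out of the non-ciliated cells, so the non-ciliated Wdr34 clone carries the arginine to tryptophan allele. The glycine to serine mutant also carries an unintended heterozygous missense change in Wdr34, and the Wdr60 mutant a heterozygous synonymous change in Wdr60. Ciliated cells were starved of serum according to the study's methods. The labels give 10% serum for every one of the 52 libraries. State, serum and time of sequencing cannot be told apart in these libraries, nor can a genotype be told from the clone that carries it. By the study's text the clones of both states may be the same ones, but the labels tie no clone of one state to a clone of the other, so the states were compared as unpaired clones. Because the edits are missense, the RNA level of Wdr34 or Wdr60 does not check the labels.

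Library totals ran from 14816218 to 28084979 counts, so that 3 counts equal 0.107 to 0.202 CPM, the counts of a gene per 1e6 counts of its library. All levels are given as CPM after TMM scaling over the 52 libraries. Differences between groups are log2 fold changes from edgeR quasi-likelihood F tests with the library as the sample, and a gene was called where its Benjamini-Hochberg adjusted p was under 0.05 and its level differed by 1 or more on the log2 scale. The 4 libraries of a clone share 1 source, so these p-values measure in part the spread between technical replicates, and on simulated data with clones as unlike as the controls this fit made many false calls. For this reason clone means were also compared by an exact 2-sided permutation test, which cannot go below p = 0.0286 for 3 against 4 or 4 against 4 clones or below p = 0.0667 for 2 against 4 clones. After adjustment over all genes its smallest p was 1 for both mutant comparisons and 0.123 for the comparison of states, so that no gene passed this test. It cannot show that no gene differed by clones, since its smallest possible p is high for an adjustment over all genes. With the libraries of a clone summed, edgeR called Efnb2, Ephb2 and Plxnb3 between the states.

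Both control clones G7 and 2 stood apart from the other clones. Of 16 collecting duct and kidney epithelium markers, Aqp2 and Avpr2 were under 1 CPM in every clone, although water transport under vasopressin is what marks principal cells. The summed level of the 16 was 1095 CPM in non-ciliated control 2, 1798 CPM in ciliated control G7 and 1991 CPM in ciliated Wdr34 clone 3, and 3337 to 5155 CPM in the other 10 clones. Cdh1, the epithelial cadherin, was at 4.22 CPM in control 2 and 14.4 CPM in G7, against 241 to 649 CPM elsewhere. Other genes of the same list went the other way, since Cdh16, Pax2, Pax8 and Hoxb7 were higher in G7 than in any other clone and higher in control 2 than in any other non-ciliated clone, with Cdh16 at 841 CPM in G7 and 266 CPM in control 2. The summed level of 8 mesenchyme markers spanned 55.0 to 664 CPM in non-ciliated controls, 194 to 216 CPM in non-ciliated mutants, 4.88 to 150 CPM in ciliated controls and 6.98 to 229 CPM in ciliated mutants, and Col1a2, Col3a1 and Pdgfrb stayed under 1 CPM in every clone. All 6 endothelial markers and 5 of 7 neuronal markers were under 1 CPM in every clone. Values without G7 or control 2 are given below for several results.

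The promoters of 3 members that were called lower in non-ciliated mutants are shown for reference, because they belong to the receptor and the ligand described first and to the semaphorin with the largest called difference of a single mutant clone in non-ciliated cells. Each is the run of 250 bases before the gene start in RefSeq (GRCm38.p6), written 5′ to 3′ on the gene's strand, with CG dinucleotides in capitals. The Plxnd1 window lies at chr6:115995006-115995255 on the minus strand, the Efna2 window at chr10:80179232-80179481 on the plus strand and the Sema5a window at chr15:32244563-32244812 on the plus strand.
Plxnd1: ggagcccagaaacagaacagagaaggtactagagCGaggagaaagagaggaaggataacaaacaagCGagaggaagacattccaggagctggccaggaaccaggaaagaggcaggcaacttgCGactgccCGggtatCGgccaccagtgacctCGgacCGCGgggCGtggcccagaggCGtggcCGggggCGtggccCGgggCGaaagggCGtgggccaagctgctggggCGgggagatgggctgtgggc
Efna2: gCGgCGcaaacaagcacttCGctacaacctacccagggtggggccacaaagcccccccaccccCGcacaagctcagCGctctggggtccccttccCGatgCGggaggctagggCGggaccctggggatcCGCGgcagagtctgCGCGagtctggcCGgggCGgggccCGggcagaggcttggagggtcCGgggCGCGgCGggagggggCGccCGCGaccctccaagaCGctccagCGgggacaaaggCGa
Sema5a: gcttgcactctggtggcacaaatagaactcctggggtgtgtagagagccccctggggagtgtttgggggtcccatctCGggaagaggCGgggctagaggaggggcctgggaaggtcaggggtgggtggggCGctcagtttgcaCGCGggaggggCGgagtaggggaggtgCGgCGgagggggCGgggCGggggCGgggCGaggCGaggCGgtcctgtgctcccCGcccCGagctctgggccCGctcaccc
The windows hold 16 CG dinucleotides at Plxnd1, 25 at Efna2 and 17 at Sema5a. Of the 68 genes, 58 had an entry, with 74 promoters of 300 bases that run from 250 before to 50 after a start, and their median was 18.5 CG dinucleotides against 7 over all 32851 promoters. The GLI motif GACCACCCA, the DNA element of the hedgehog transcription factors, was searched on both strands. It occurred in 0 of the 74 promoters and in 0.253% of all promoters of this length, which says only that these letters are not in these windows. Ntn1, at chr11:68209364-68400823 on the minus strand, had no entry.

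Of the 68 genes, 45 reached a mean of 1 CPM in at least 1 clone and 35 did so in every clone. At least 1 of the 4 comparisons between groups could test 44 of them, namely 17 semaphorins, 7 plexins, all 8 ephrins, 7 Eph receptors, 3 netrins, Slit2 and Unc5b. Ephb6, an Eph receptor without kinase activity, passed the expression filter only in a comparison of ciliated Wdr34 clone 3 by itself. The remaining 23 were under 1 CPM in every clone. These were Epha3, Epha5, Epha6, Epha8, Epha10, Ephb1, Plxna4, Plxna4os1, Plxnc1, Robo1, Robo2, Robo3, Robo4, Sema5b, Sema6b, Sema6d, Slit1, Slit3, Ntn5, Unc5a, Unc5c, Unc5d and Unc5cl, and 7 of them had 0 counts in all 52 libraries. Thus all 4 Robo receptors were under 1 CPM, with the highest clone mean at 0.317 CPM for Robo1, while their ligand Slit2 reached 133 CPM. Among the Unc5 receptors, Unc5b alone passed 1 CPM.

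Levels between genes were compared per kilobase of exon (RPKM, CPM divided by the kilobases in the union of exons in GENCODE vM21, GRCm38). Plxnb2, a receptor of the class 4 semaphorins, was highest at 113 RPKM over the 13 clones and spanned 93.1 to 127 RPKM from clone to clone. Sema3c, a secreted semaphorin, followed at 54.9 RPKM, then the receptor Epha2 at 42.8, the receptor Ephb4 at 36.2, the ephrin Efna1 at 33.0 and the netrin receptor Unc5b at 29.0 RPKM. The clones overlapped widely in this order, since Sema3c spanned 17.5 to 98.1 RPKM, Epha2 5.90 to 78.3 RPKM and Unc5b 7.14 to 51.5 RPKM. The same 6 genes led when the longest transcript replaced the union of exons.

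Clones differed more than libraries of a clone. Over the 44 tested genes, the SD of log2 CPM between control clones of a state had a median of 0.811, against 0.206 between the 4 libraries of a clone, and it was larger between clones for 43 of the 44. The largest spread between control clones was found in Sema3g (SD 2.70), followed by Sema4f (2.55), Epha1 (2.21), Slit2 (2.05), Sema6a (1.87) and Sema3d (1.83). Plxnb2 (0.10), Ephb4 (0.16), Sema4d (0.17), Sema3f (0.22) and Efnb2 (0.28) varied least among the tested genes, and these 5 were picked after their values were seen. Within clones, 1 library of control A4 stood apart, with Sema7a at 21.2 CPM against 63.5 to 69.9 CPM in its other 3 libraries and Epha2 at 109 CPM against 248 to 343 CPM.

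Each control clone was compared with the other 3 of its state, which measures how far clones without a mutation differ. Among non-ciliated controls, 6 of 43 guidance genes were called in AB (6.06% of all genes tested), 4 in clone 1 (2.18%), 19 in clone 2 (12.9%) and 5 in clone 3 (2.6%). Among ciliated controls, 8 of 44 were called in D8 (5.02%), 9 in H12 (4.08%), 3 in A4 (2.25%) and 21 in G7 (18.2%). Of the 44 genes, 34 were called in at least 1 control clone and 9 in no single clone. In the mutant clones 11 genes were called at least once, Ephb6 among them. These pooled counts are not given over all genes, so they do not set guidance genes apart. The genes called in the most single-clone comparisons were Sema5a (7 of 13), Ntn1 (6), Efna2 and Sema3g (5 each) and Plxnd1, Sema4g, Sema7a and Slit2 (4 each).

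**Figure D1:**
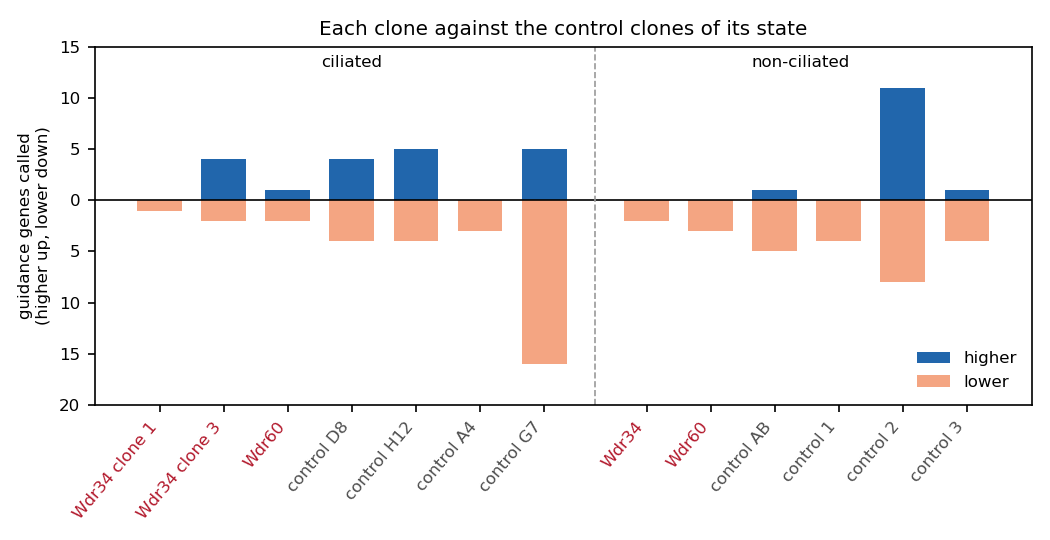
Number of guidance genes called higher (up, blue) or lower (down, orange) in each clone against the control clones of its state, with mutant clones labelled in red and control clones in grey. Control G7 had 5 higher and 16 lower and control 2 had 11 higher and 8 lower. No mutant clone had more than 6 called in all.

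G7 and control 2 come from different states and share no library. Their calls had 10 genes in common in the same direction, which is 47.6% of the 21 in G7 and 52.6% of the 19 in control 2, and 1 gene in the opposite direction. Over all genes the same clones shared 1006 calls in the same direction, 44.9% of those in G7 and 63.4% of those in control 2. Epha1, Epha2 and Epha4, which are ephrin-A receptors, Sema3c, Sema3e, Sema4f, Sema6a and Slit2 were lower in both, and Plxnd1 and Sema5a were higher in both. For example, the level of Epha1 was 2.43 CPM in G7 against 36.6 to 57.6 CPM in the other ciliated controls, and 1.14 CPM in control 2 against 22.9 to 32.7 CPM in the other non-ciliated controls. Sema4f was at 0.0886 CPM in G7 and 0.312 CPM in control 2, and Sema6a at 0.147 and 0.348 CPM. Both genes entered these fits through other controls, where they are higher, so their part in these shares is a description. Controls D8 and 3 shared 4 genes in the same direction, 50% of the 8 in D8 and 80% of the 5 in clone 3, with Epha7 higher and Efna2, Ntn1 and Sema5a lower in both, against 24.7% and 47.8% of the calls over all genes. Of these, Epha7 was highest among the controls of each state in these clones, at 2.01 CPM in D8 and 0.708 CPM in clone 3. It entered the fits through them, so its part in these shares is a description. H12 and AB shared Plxnd1, Sema3g and Sema7a, 33.3% of the 9 in H12 and 50% of the 6 in AB, against 27.8% and 18.7% over all genes. A4 and control 1 shared Sema3g, 33.3% of the 3 in A4 and 25% of the 4 in clone 1, against 17.7% and 18.2% over all genes. Sema3g, which H12 and AB also shared, was at 0.0531 CPM in A4 and 0.0290 CPM in clone 1. It reached 5.54 CPM in D8 and 7.0 CPM in control 2. It entered these fits through other controls, where it is high, so its part in these shares is a description. Control 1 also shared Sema4g and Slit2 with G7, 9.52% of the 21 in G7 and 50% of the 4 in clone 1, with 1 gene in the opposite direction. Over all genes, control 1 shared 56 calls in the same direction and 27 in opposite directions with G7. With A4 it shared 49 and 0. D8 and control 2 shared 0 guidance genes in the same direction and 6 in opposite directions, against 28 and 177 over all genes.

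Plxnd1 encodes plexin-D1, a receptor best known for Sema3e signals that pattern blood vessels, and Efna2 encodes ephrin-A2, a surface ligand of the EphA receptors. The level of Plxnd1 was 18.7 CPM in non-ciliated Wdr34 (17.5 to 20.7 over 4 libraries) and 15.1 CPM in non-ciliated Wdr60 (12.4 to 16.2). The non-ciliated controls were at 14.2 CPM in AB, 34.5 in clone 3, 43.9 in clone 1 and 189 in clone 2. Both mutant clones thus lay just above the lowest control and below the other 3. Plxnd1 fell by 2.06 ± 0.54 (SE) on the log2 scale in non-ciliated mutants (edgeR, adjusted p = 0.012), with clone means of 16.9 ± 2.53 CPM (SD, n = 2) against 70.5 ± 80.1 CPM (SD, n = 4). Without control 2 the difference was -0.87 (adjusted p = 0.020), under the fold limit, and over clone means the exact permutation p was 0.333.

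In ciliated cells the level of Plxnd1 was 78.7 CPM in Wdr34 clone 1, 124 in Wdr34 clone 3 and 39.2 in Wdr60. The ciliated controls were at 36.1 CPM in H12, 75.4 in A4, 83.5 in D8 and 166 in G7, so that all 3 mutant clones lay within the range of the controls. The fold change in ciliated mutants was -0.17 ± 0.28 (edgeR, adjusted p = 0.78), and it was 0.31 without G7 and 0.15 without Wdr60. The mutant difference in ciliated cells exceeded that in non-ciliated cells by 1.90 ± 0.56, which missed the threshold (edgeR interaction, adjusted p = 0.064). The same interaction was 1.89 by DESeq2 (adjusted p = 0.017) and 1.18 in edgeR without G7 and control 2 (adjusted p = 0.039), both of which are calls.

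Efna2 was a low gene, with clone means from 0.558 to 20.7 CPM. In non-ciliated cells its level was 0.558 CPM in Wdr34 (0.375 to 0.761 over 4 libraries) and 5.98 CPM in Wdr60, against 3.09 CPM in control 3, 8.07 in AB, 8.42 in clone 1 and 20.7 in clone 2. In ciliated cells it was 1.88 CPM in Wdr34 clone 1 (1.44 to 2.36), 4.70 in Wdr34 clone 3 and 7.91 in Wdr60, against 17.1 CPM in control G7, 13.3 in H12, 10.0 in A4 and 3.22 in D8. In each state 1 Wdr34 clone lay below every control, and the other mutant clones lay above the lowest control.

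Efna2 was the member called lower in both states. It fell by 1.19 ± 0.33 in ciliated mutants (edgeR, adjusted p = 0.046) and by 1.63 ± 0.54 in non-ciliated mutants (adjusted p = 0.043). Clone means were 4.83 ± 3.02 CPM (SD, n = 3) against 10.9 ± 5.91 CPM (n = 4) in ciliated cells and 3.27 ± 3.83 CPM (n = 2) against 10.1 ± 7.48 CPM (n = 4) in non-ciliated cells, and the exact permutation p was 0.20 in both. Leaving out any 1 replicate number, or the Wdr34 clone with the lowest level, ended the call in either state, as did leaving out G7 in ciliated cells (-0.88, adjusted p = 0.076) and control 2 in non-ciliated cells (-1.0, adjusted p = 0.17). By single clones, Efna2 fell by 4.15 ± 0.69 in non-ciliated Wdr34 and by 2.55 ± 0.53 in ciliated Wdr34 clone 1 (edgeR, adjusted p = 0.00092 and 0.012), while ciliated Wdr34 clone 3 missed the threshold with -1.25 ± 0.47 (adjusted p = 0.067), as did the non-ciliated and ciliated Wdr60 clones with -0.76 ± 0.52 and -0.48 ± 0.45 (adjusted p = 0.355 and 0.574). The mutant differences of the 2 states differed by 0.44 ± 0.60 (edgeR interaction, adjusted p = 0.79).

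**Figure D2:**
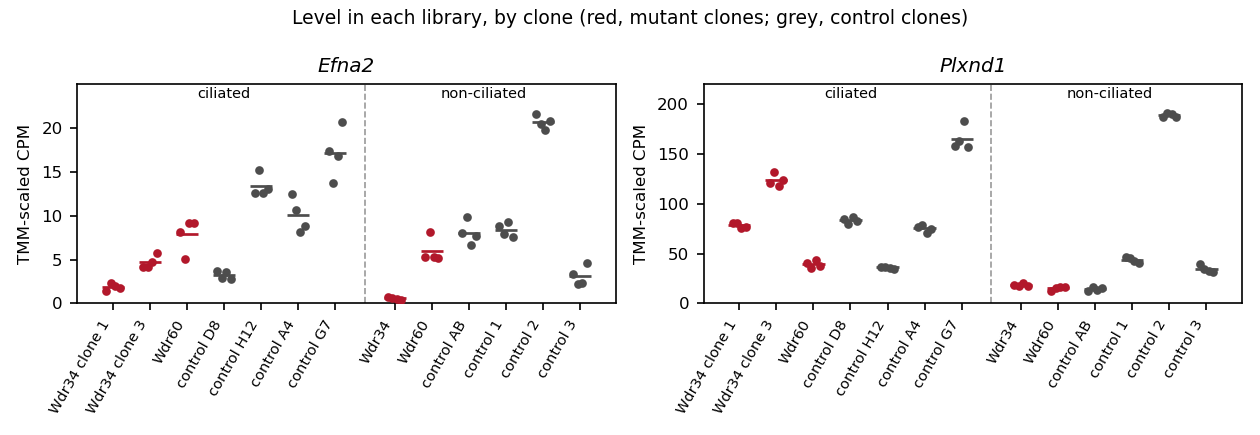
Level of Efna2 (left) and Plxnd1 (right) in each of the 52 libraries as TMM-scaled CPM, by clone, with mutant clones in red, control clones in grey and a line at each clone mean. Efna2 was lowest in non-ciliated Wdr34 at 0.558 CPM, and Plxnd1 was highest in non-ciliated control 2 at 189 CPM and ciliated control G7 at 166 CPM.

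In non-ciliated cells, 6 of the 42 guidance genes tested were called lower in the mutants and 0 higher. Over all 12012 genes tested, 2.57% were called lower and 0.491% higher, and the median log2 fold change was -0.16 over the guidance genes against 0.00 over all genes. Beside Efna2 and Plxnd1 they were the ligands Ntn1, Sema5a, Sema7a and Sema3g, of which Sema3g passed the expression filter only through control clones 2 and 3, where it is high, and is therefore a description. All 6 calls were lost when the libraries of a clone were summed (edgeR, adjusted p = 0.976 for each) and when voomLmFit held the clone as a block (adjusted p from 0.16 to 0.93). The clone means of the groups overlapped for all 42 genes, whereas they did not overlap for 12.9% of all genes, so that no guidance gene lay on the same side of its controls in both states. Of the mesenchyme markers, 1 of 3 tested fell in the same comparison, namely Acta2, the smooth muscle actin, by 3.17 ± 0.80. It was at 3.90 CPM in control 1 and 0.414 to 0.745 CPM in the other controls. In Wdr34 and Wdr60 it was at 0.272 and 0.0161 CPM, so the fitted fall is a description. The part of Acta2 in the result was not tested. In these bulk libraries, fewer cells that express a gene and less RNA per cell cannot be told apart.

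Ntn1 encodes netrin-1, a secreted cue for Dcc and Unc5 receptors. Its level was 17.0 CPM in non-ciliated Wdr34 and 8.31 CPM in Wdr60, against 13.3 CPM in control 3, 45.1 in AB, 48.8 in clone 1 and 64.4 in clone 2. Control 3 thus lay between both mutant clones, and the other 3 controls lay above them. Ntn1 fell by 1.76 ± 0.33 (edgeR, adjusted p = 0.0012), and the call held with each single clone or replicate number left out. Over clone means the exact permutation p was 0.20.

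Sema5a, a transmembrane semaphorin with thrombospondin repeats, was at 34.0 CPM in non-ciliated Wdr34 and 2.44 CPM in Wdr60 (1.98 to 3.46 over 4 libraries). The controls were at 30.1 CPM in clone 3, 32.3 in AB, 139 in clone 1 and 225 in clone 2, so that the Wdr34 clone lay within their range and the Wdr60 clone below it. Sema5a fell by 2.55 ± 0.67 in the mutants (edgeR, adjusted p = 0.013) and the call ended without Wdr60 (-1.64, adjusted p = 0.12) but held without control 2 (-1.88, adjusted p = 0.044). Sema7a, a semaphorin held at the surface by a lipid anchor, was at 19.2 CPM in Wdr34 and 4.16 CPM in Wdr60, against 12.9 CPM in AB, 42.3 in clone 2, 46.4 in clone 1 and 57.2 in clone 3. It fell by 1.76 ± 0.40 (edgeR, adjusted p = 0.0046) and the call ended without Wdr60 (-1.04, adjusted p = 0.093).

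Sema3g, a secreted class 3 semaphorin, was at 0.156 CPM in Wdr34 and 0.0922 CPM in Wdr60. Its controls were at 0.0290 CPM in clone 1, 0.10 in AB, 2.18 in clone 3 and 7.0 in clone 2, so that 2 of the 4 controls were as low as the mutants. The fitted difference of Sema3g (-4.18 ± 1.17) rests on the 2 other controls through which it entered the fit, and without control 2 the gene no longer passed the expression filter. The values of both mutant clones were at or under 3 counts in most libraries, so the fitted size depends on the prior count.

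In ciliated cells, Efna2 was the only guidance gene of 43 tested that was called in the mutants, and 0 were called higher. Over all 11950 genes, 0.226% were called lower and 0.418% higher, and 12 of the 43 (27.9%) had an unadjusted p under 0.05, as did 19.2% of all genes. The median log2 fold change was -0.07 over the guidance genes and -0.01 over all genes. DESeq2 called 1 higher and 2 lower. Of the marker lists, Map2, 1 of 2 neuronal markers tested, was called at 3.50 ± 0.94 in the same comparison. This rests on Wdr34 clone 3 at 29.5 CPM, since Wdr34 clone 1 and Wdr60 were at 0.070 and 0.082 CPM, below the 0.128 to 2.09 CPM of the controls. Ephb4, an EphB receptor, was the only guidance gene whose clone means did not overlap, as against 1.95% of all genes. Its level was 201 to 208 CPM in the 3 mutant clones and 151 to 179 CPM in the 4 controls. The difference was 0.26 ± 0.05 on the log2 scale (edgeR, adjusted p = 0.0019), under the fold limit, with an exact permutation p of 0.0286, the smallest that this design allows, and an adjusted p of 1.

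By single mutant clones, 2 of 43 guidance genes were called in non-ciliated Wdr34 (2.24% of all genes tested), 3 of 44 in non-ciliated Wdr60 (3.41%), 1 of 44 in ciliated Wdr34 clone 1 (0.679%), 6 of 45 in ciliated Wdr34 clone 3 (5.8%) and 3 of 44 in ciliated Wdr60 (1.93%). The single control clones, each set against 3 others, gave 3 to 21 calls. Ntn1 and Sema5a were called lower in the Wdr60 clone of each state. Ntn1 fell by 2.37 ± 0.47 in non-ciliated and 1.85 ± 0.44 in ciliated Wdr60 (edgeR, adjusted p = 0.0024 and 0.016), with 16 CPM in the latter against 23.3 to 107 CPM in the controls. Sema5a fell by 5.45 ± 0.92 and 3.20 ± 0.71 (adjusted p = 0.00061 and 0.0098), with 13.5 CPM in ciliated Wdr60 against 28.1 to 265 CPM in the controls. Both genes were also called lower in control clones D8 and 3 against the other controls, where Sema5a fell by 2.49 ± 0.46 and 2.14 ± 0.62.

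Ciliated Wdr34 clone 3 was the mutant clone with most calls, and it was also the mutant clone with the lowest epithelial marker sum, although Cdh16, Hoxb7 and Gata3 of that list were higher in it than in any other mutant clone. Vim was at 197 CPM in it against 4.48 and 9.50 CPM in the other ciliated mutants, Dcn, a matrix proteoglycan gene, at 29.2 CPM against at most 1.01 CPM in any other clone, and Map2 at 29.5 CPM against at most 2.09 CPM. Col1a1, from the same mesenchyme list as Vim and Dcn, was lower in it than in any other mutant clone at 1.17 CPM. Their part in the calls was not tested. Epha7, the netrin Ntn3 and the semaphorin Sema4a rose and Ephb2 and Sema4g fell in it, and Ephb6 was called higher. Sema4g was at 7.75 CPM in this clone, within the 6.94 to 45.5 CPM of the ciliated controls. Ephb6, Ntn3 and Sema4a were picked after their values were seen. Ntn3 and Sema4a differed by 1.31 ± 0.42 and 1.01 ± 0.35 (edgeR, adjusted p = 0.031 and 0.044), at 2.36 and 3.78 CPM in this clone. Ephb6 was at 1.18 CPM here and at most 0.449 CPM, as a clone mean, elsewhere, and since it passed the filter only through this clone its call is no more than a description. The level of Ephb2 was 26.5 CPM in this clone against 56.4 to 101 CPM in the ciliated controls, and it fell by 1.66 ± 0.19 (edgeR, adjusted p = 2.5e-06). The other ciliated mutant clones were at 125 and 132 CPM, above every control. Efnb2, a ligand of EphB receptors and of EphA4, rose by 1.16 ± 0.14 in ciliated Wdr60 (edgeR, adjusted p = 4.3e-05), where it was at 110 CPM against 39.2 to 65.5 CPM in the controls and 47.3 and 51.3 CPM in the Wdr34 clones.

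**Figure D3:**
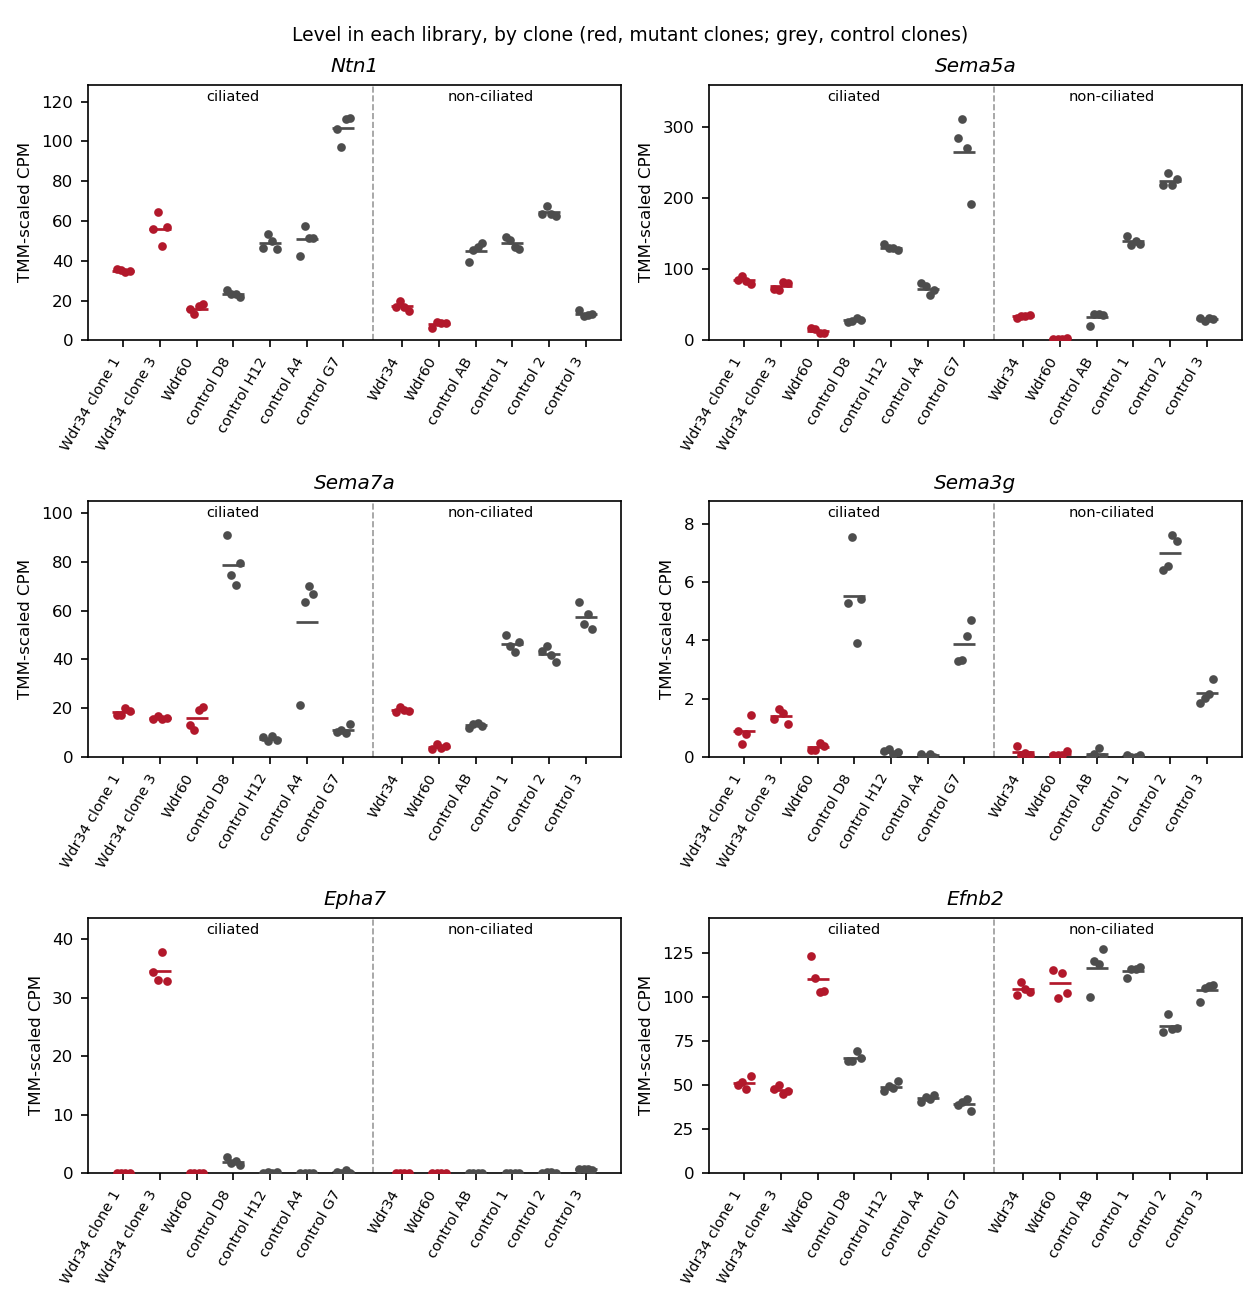
Level of 6 guidance genes in each library as TMM-scaled CPM, by clone, with mutant clones in red, control clones in grey and a line at each clone mean. Sema5a was lowest in the Wdr60 clone of each state (2.44 and 13.5 CPM), Epha7 was at 34.5 CPM in ciliated Wdr34 clone 3, and Efnb2 was at 110 CPM in ciliated Wdr60.

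The mutant differences of both states were compared in 1 fit over the 52 libraries. Of 44 guidance genes tested, Epha7 was called higher and 0 were called lower, while 1.12% of all 12544 genes were called higher and 0.0638% lower. Epha7 encodes a receptor of the ephrin-A ligands. Its level was 34.5 CPM in ciliated Wdr34 clone 3 (32.8 to 37.9 over 4 libraries), 2.01 CPM in control D8 and 0.708 CPM in control 3, and at most 0.222 CPM in the other 10 clones. The interaction was 7.65 ± 2.01 (edgeR, adjusted p = 0.031) and rests on that single clone. It is a description rather than a test, since Epha7 passed the filter through the few clones in which it was found and was tested in neither mutant comparison by itself. It was -1.45 without Wdr34 clone 3 (adjusted p = 0.87). Both other ciliated mutant clones were under the level of 3 counts, so the fitted size depends on the prior count.

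Between the states, control clones were compared, so that no mutation entered. Of 42 guidance genes tested, 4 were higher in ciliated controls and 2 were lower, beside 6.29% and 3.99% of all 11856 genes tested. The median log2 fold change was 0.32 over the guidance genes and 0.02 over all genes. Of the 6, the receptor Ephb2 and the ligands Efna1, Sema4g and Slit2 rose and the receptor Epha4 and the ligand Efnb2 fell. In the same comparison both mesenchyme markers tested fell, Vim, an intermediate filament gene, by 2.78 ± 0.57 and Col1a1, a collagen gene, by 1.46 ± 0.27. The only neuronal marker tested, the tubulin gene Tubb3, fell by 1.56 ± 0.48. Of 11 epithelial markers tested, Cdh16, a kidney cadherin, rose by 1.08 ± 0.14, and 0 were called lower. The keratin gene Krt7 of that list went the other way without a call. It was at 277 to 421 CPM in D8, H12 and A4 against 722 to 940 CPM in AB, 1 and 3. Its level was 3.65 CPM in G7 and 3.76 CPM in control 2. The part of these markers in the result was not tested.

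Ephb2 was at 56.4, 80.4, 92.3 and 101 CPM in ciliated controls D8, G7, A4 and H12 and at 7.87, 25.5, 25.5 and 39.1 CPM in non-ciliated controls 3, 1, AB and 2. The groups did not overlap, and Ephb2 rose by 1.75 ± 0.22 (edgeR, adjusted p = 2.4e-08). Efnb2, its ligand, was at 39.2 to 65.5 CPM in ciliated and 83.8 to 117 CPM in non-ciliated controls, and it fell by 1.09 ± 0.09 (adjusted p = 1.2e-11) without overlap. Without G7 its difference was -0.99, which is under the fold limit. Sema4d, picked after its values were seen, was the third gene without overlap, at 102 to 137 CPM in ciliated and 60.8 to 77.9 CPM in non-ciliated controls (0.73 ± 0.06, edgeR, adjusted p = 1.4e-11, under the fold limit). Groups did not overlap for 3 of 42 guidance genes and for 23.2% of all genes tested, and the exact permutation p of each of the 3 was 0.0286 (adjusted p = 0.123).

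Efna1, a ligand of Epha2, was at 45.6 to 117 CPM in ciliated and 18.2 to 51.3 CPM in non-ciliated controls, where AB overlapped with G7, and it rose by 1.39 ± 0.20 (edgeR, adjusted p = 6.5e-07). Epha4, which binds ephrins of both kinds, was at 5.43 to 46.0 CPM in ciliated and 21.1 to 105 CPM in non-ciliated controls and fell by 1.75 ± 0.38 (adjusted p = 0.00017). Sema4g, a transmembrane semaphorin, was at 6.94 CPM in G7 and 22.2 to 45.5 CPM in the other 3 ciliated controls, against 4.64 to 10.9 CPM in non-ciliated controls, and rose by 1.66 ± 0.27 (adjusted p = 4.4e-06). When the libraries of a clone were summed, the calls for Efna1, Epha4, Sema4g and Slit2 were lost (edgeR, adjusted p = 0.055, 0.136, 0.072 and 0.334) and those for Ephb2 and Efnb2 held.

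Slit2 was at 5.33 CPM in G7, 15.2 in A4, 48.0 in H12 and 133 in D8, and at 2.10 CPM in control 2, 2.18 in clone 1, 25.8 in AB and 28.7 in clone 3. It rose by 1.78 ± 0.59 in ciliated controls (edgeR, adjusted p = 0.0097), but the clones, taken as unpaired, overlapped, and without D8 the difference was 0.64 (adjusted p = 0.33). Without control 2, 9 of 42 guidance genes were higher in ciliated controls in place of 4, against 7.95% of all genes, and without G7 and control 2 together 7 of 39 were, against 7.45%. Plxnd1 was among the genes that turned on these clones, with 0.36 ± 0.39 over all controls (edgeR, adjusted p = 0.44), 1.55 without control 2 (adjusted p = 3.1e-05), 1.06 without both clones (adjusted p = 0.00034) and -0.12 without G7.

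**Figure D4:**
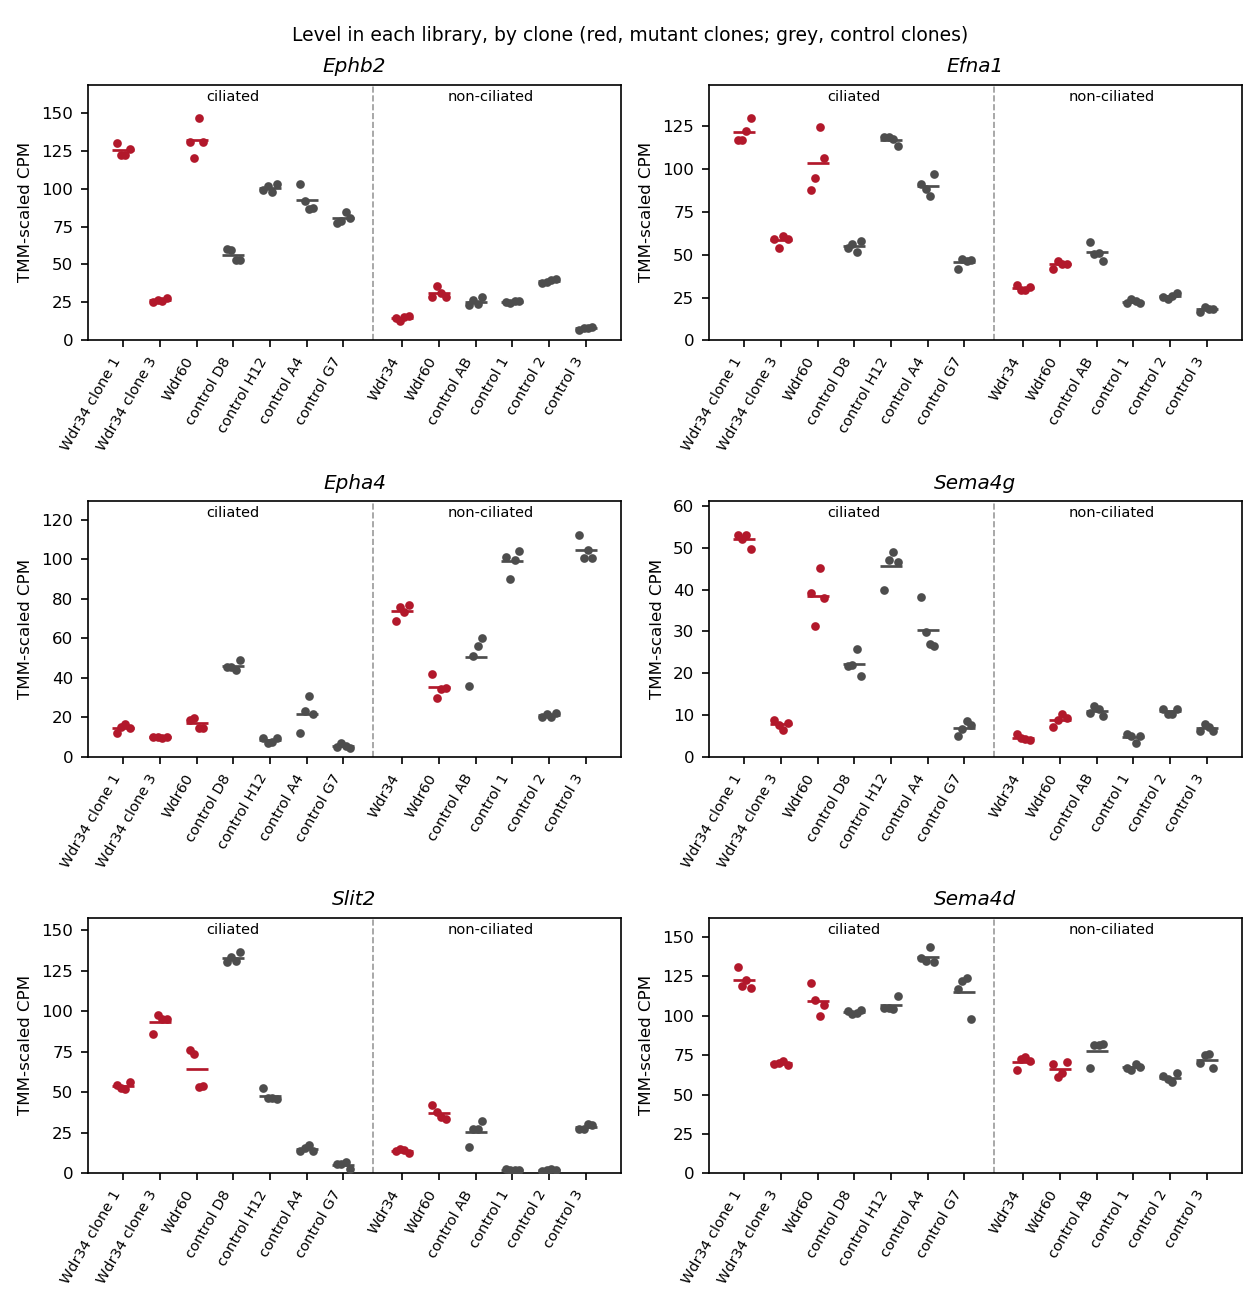
Level of 6 guidance genes in each library as TMM-scaled CPM, by clone, with mutant clones in red, control clones in grey and a line at each clone mean. Ephb2 was at 56.4 to 101 CPM in ciliated and 7.87 to 39.1 CPM in non-ciliated controls, whereas Slit2 overlapped between the states and was highest in control D8 at 133 CPM.

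Genes of the same pathways outside these families were described from a list of 50, which holds co-receptors, other netrin receptors and the adaptors and GTPase regulators downstream. In ciliated mutants 41 were tested and 0 called, beside 0.418% called higher and 0.226% lower over all genes, with a median log2 fold change of -0.11. In non-ciliated mutants 42 were tested, of which Vav3, a guanine nucleotide exchange factor, rose by 1.05 ± 0.36 on the log2 scale. Flrt1, a ligand of Unc5 and latrophilin receptors, and Srgap1, a Slit-Robo GTPase-activating protein, fell by 3.43 ± 0.59 and 1.05 ± 0.12 (edgeR, adjusted p = 0.00055 and 5.7e-06). Over all genes, 0.491% were called higher and 2.57% lower in this comparison. Between control states 41 were tested, and Rgmb, Ngef and Vav3 rose while Met, Srgap3 and Rnd1 fell, beside 6.29% of all genes called higher and 3.99% lower. Of the 41, Ngef, also called ephexin, which binds EphA receptors, rose by 2.19 ± 0.43, and Rnd1, a GTPase that binds plexins, fell by 1.53 ± 0.17 (edgeR, adjusted p = 4.7e-05 and 2.5e-09). The mutant difference of Flrt1 was higher in ciliated than in non-ciliated cells by 2.71 ± 0.72 (edgeR interaction, adjusted p = 0.036), 1 of 44 tested, beside 1.12% of all genes. The calls of these pathway genes rest on fits of libraries and were not repeated with the libraries of a clone summed.

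**Figure D5:**
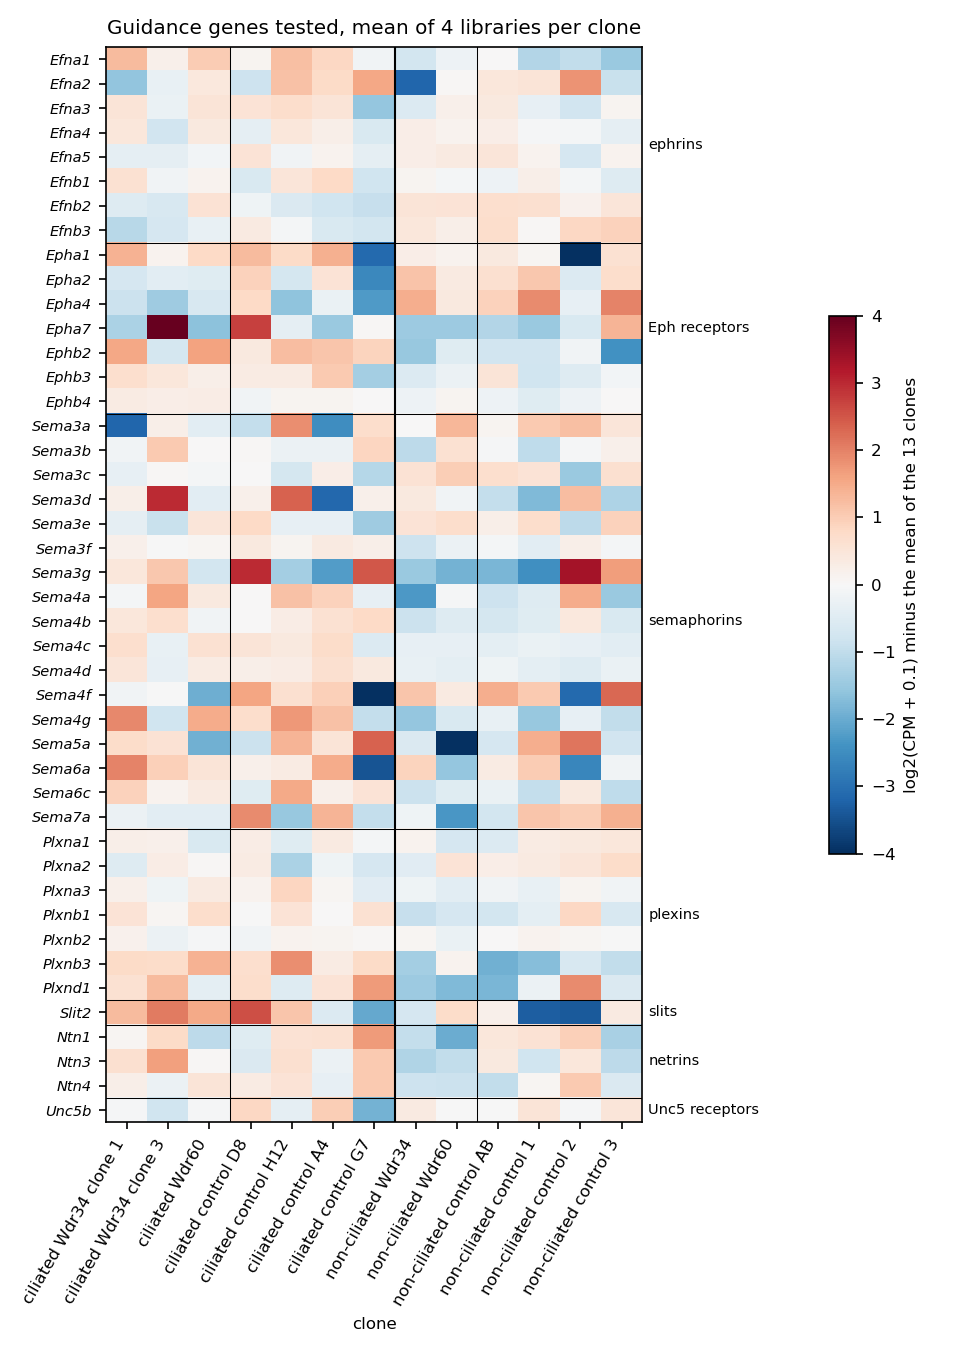
Level of the 44 tested guidance genes (rows, by family) in each of the 13 clones (columns) as log2(CPM + 0.1) minus the mean over the 13 clones, with the colours ending at 4 in either direction. Plxnb2 was nearly even over the clones, while controls G7 and 2 share low Epha1, Sema4f and Sema6a.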

How the data were processed

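The authors aligned the reads to GRCm38 with Rsubread and deposited raw counts per gene symbol from featureCounts, 1 table per library, and they tested with DESeq2 v1.18.1 in R v3.4.4. The handling of strand and of reads with several matches is not given in the sources used here, so overlapping and antisense genes cannot be told apart. The counts were used as deposited. They were fitted in R 4.3.3 with edgeR 4.0.16 (filterByExpr, TMM within each comparison, quasi-likelihood F test, Benjamini-Hochberg adjustment over all genes tested). DESeq2 1.42.0 and voomLmFit, which runs limma 3.58.1, were alternatives. Calls needed an adjusted p under 0.05 and a difference of 1 or more on the log2 scale. SEs were taken from the fold change and its F statistic. Library totals of 14816218 to 28084979 set the precision of low genes. The 78 pairs of libraries of 1 clone differed by 2.02 to 109 times the sampling variance (chi-square per degree of freedom), so no library was counted as a copy of another.

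All genes were fitted and the guidance genes read from the fit. Named genes are Plxnd1 and Efna2, those called in 1 of the 4 comparisons between groups, the 6 highest per length, the 6 with the largest SD between control clones and 6 called in most single clones, with Sema7a and Slit2 tied with the last of these. Genes and marker lists were chosen with earlier results of these data known. On simulated data with clones as unlike as the controls, the fits of libraries by edgeR and DESeq2 recovered most changed genes but also made many false calls, far more than with clones summed. Summing recovered fewer, 72% against 96.5% by edgeR and 97.5% by DESeq2, with 4 false calls against 496 and 552. With the clone as a block, voomLmFit recovered 92.5% and made 213 false calls. Only the comparison of ciliated mutants with ciliated controls was simulated. Alternatives were another test, scaling and filter, summed or blocked clones, a replicate block, no fold limit, and leaving out each clone or replicate number.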

Additional observations from a re-analysis of the deposited data

Results flagged for a closer look

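Within groups of 4 control clones, the gap of a clone to the nearest other was divided by the range of the 4 mean log2 levels. A clone was singled out where this ratio exceeded Dixon's 95% critical value. Such clones were looked for in 22 named genes in both states, 44 groups in all. Chance singles out about 1 in 20 groups of an unselected gene, but 6 of the 22 genes, Epha1 and Sema4f among them, were named for their large spread between control clones, so that this rate does not hold here. The critical value was exceeded 4 times, by control G7 for Epha1 (2.43 CPM) and Sema4f (0.0886 CPM) and by control 2 for Epha1 (1.14 CPM) and Sema3c (125 CPM). All 4 are low values in the 2 control clones with the lowest Cdh1. Epha7 was singled out by the fitted difference between states, in which its mutant difference was higher in ciliated cells by 7.65 on the log2 scale. This value rests on ciliated Wdr34 clone 3. It is a description rather than a test, since Epha7 passed the filter through the few clones in which it was found.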

How the results depend on the processing

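Counts of called guidance genes moved with the unit of replication, the fold limit and the filter. With the libraries of a clone summed, 0 were lower in ciliated mutants (1 in the edgeR fit of libraries), 0 in non-ciliated mutants (6), 2 higher and 1 lower in ciliated controls (4 and 2; Ephb2 and Efnb2 of these, and Plxnb3, which the fit of libraries did not test), and 0 higher in the interaction (1). With the clone as a block in voomLmFit, 0 were lower in either mutant comparison and 0 higher in the interaction. DESeq2 gave 1 higher and 2 lower in ciliated mutants, 4 lower in ciliated controls and 3 higher in the interaction. It also gave 5 lower in non-ciliated Wdr34, 6 in non-ciliated Wdr60, 2 in ciliated Wdr34 clone 1, 5 in ciliated Wdr60 and 7 in control 1, and 2 higher in control 3 and 1 in A4. With genes of at least 1 count kept, 2 were higher in ciliated mutants and 9 higher and 4 lower in ciliated controls. With at least 10 counts in every library, 0 were higher in the interaction, where Epha7 was no longer tested. With no fold limit, 1 was higher and 2 lower in ciliated mutants and 11 higher and 5 lower in ciliated controls.

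Leaving out 1 clone or replicate number gave 0 to 1 higher and 0 to 2 lower in ciliated mutants, 2 to 7 lower in non-ciliated mutants, 3 to 9 higher and 1 to 4 lower in ciliated controls, and 0 to 5 higher and 0 to 1 lower in the interaction. For single mutant clones it gave 0 to 1 higher and 1 to 8 lower in non-ciliated Wdr34, 0 to 1 higher and 3 to 7 lower in non-ciliated Wdr60, 0 to 1 higher and 1 to 3 lower in ciliated Wdr34 clone 1, 1 to 7 lower in Wdr34 clone 3 and 1 to 2 higher in ciliated Wdr60. Without G7 and control 2, an alternative chosen after seeing the data, 7 were higher in ciliated controls and 3 in the interaction. The direction turned for 3 genes. Plxnd1 was at 0.15 without Wdr60 and 0.31 without G7 in ciliated mutants (range over the clones left out -0.62 to 0.31), and at -0.12 without G7 in ciliated controls (range -0.12 to 1.55). Efna2 was at -0.18 without control 3 and -0.17 without G7 in ciliated controls (range -0.18 to 0.75), and in the interaction at -0.43 without non-ciliated Wdr34, -0.18 without control 2 and -0.11 without ciliated Wdr60 (range -0.43 to 2.97). The Epha7 interaction was -1.45 without Wdr34 clone 3 (range -1.45 to 9.84). The cause was not tested.

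Replicate numbers did not pair the libraries, since deviations of libraries with the same number had a median correlation of 0.012 over 84 pairs in ciliated and 0.0092 over 60 pairs in non-ciliated cells. With the replicate block, 0 guidance genes were lower in ciliated mutants and 5 in non-ciliated mutants, and the Efna2 call was lost in both (edgeR, adjusted p = 0.074 and 0.069). Depth limits Sema3g and Epha7, which were at or under 3 counts in several clones.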
